A study of Mus musculus with 16 samples.

Results

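The cells described here were mature, Cxcr2-expressing neutrophils of mouse bone marrow with little Il1b mRNA, taken from single-cell RNA sequencing of 6 libraries of CD45+ marrow cells. They were chosen by a rule on each cell's own unique molecular identifier (UMI) counts. A cell was kept with 201 to 5999 detected genes and at most 10% mitochondrial UMIs. A member then had at least 3% of its UMIs from S100a8 and S100a9, under 1% from the granule genes Camp, Ltf and Ngp, at least 2 Cxcr2 UMIs, at most 4 Il1b UMIs, none of the cell cycle genes Mki67 and Top2a, and at most 1 UMI of the monocyte genes F13a1 and Ms4a6c. The rule found 6815 members among 17657 non-cycling neutrophils, 31191 kept CD45+ cells and 32195 CD45+ barcodes. The whole series of 16 libraries held 77636 barcodes.

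All mice were female BALB/c. WT mice (labelled ctrl) bore no tumor and were untreated. The other groups carried 2208L, a transplanted Trp53-null mammary tumor, in the mammary fat pad, and received by mouth either vehicle, which was a methylcellulose solution, or IACS-70654, an inhibitor of the bromodomain of the histone acetyltransferases CBP and P300, in a 3-on/2-off cycle. The series' design text gives 7 days of treatment, while the study's account of the marrow experiment gives a shorter course, and the sources used here do not settle which holds. Each sample pooled marrow of tibia and femur from 3 mice, and cells were sorted as live, CD45+ and Ter119-, which removes red cell precursors. Each group had 2 libraries. Because the design text speaks of 3 mice per treatment group, the 2 libraries of a group may be parts of 1 pool, and every p-value then measures only the spread between these libraries, which may be technical. The vehicle group served as reference for the drug and WT as reference for the tumor, so the comparisons share libraries. Changes with the tumor below mean vehicle against WT, groups that differed in tumor, implantation surgery and oral dosing together. Changes with the drug below mean IACS-70654 against vehicle. The study reports that the drug alone made tumors of this model regress, so these groups may also have differed in tumor size. The separate parts of these differences were not tested.

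Neutrophils are made in marrow from dividing precursors that fill their granules in order and then stop dividing. As they mature they lose mRNA of the secondary granule proteins and gain CXCR2, the receptor for CXCL1 and CXCL2 that draws them into blood, whereas CXCR4 holds them in marrow. S100a8 and S100a9, the subunits of calprotectin, are among their most abundant mRNAs. In tumor-bearing hosts, neutrophils that restrain T cells are called polymorphonuclear myeloid-derived suppressor cells (MDSCs).

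The genes used by the rule are given as a description only, because they chose the cells. Median Cxcr2 was 3 and 4 UMIs per member in WT, 5 and 5 after vehicle and 4 and 5 after IACS-70654. S100a8 and S100a9 together made up a median of 21.5% to 24.9% of a member's UMIs over the 6 libraries. Cells just inside the Cxcr2 limit, with exactly 2 UMIs, numbered 140 to 232 per library, and otherwise equal cells just outside it, with 1 UMI, numbered 85 to 170. At the Il1b limit, 31 to 132 members per library had 4 UMIs, and 17 to 94 cells that met every other condition had 5. The share of members with no Il1b UMI was 59.4% and 63.1% in WT, 48.7% and 48.2% after vehicle and 40.1% and 34.9% after IACS-70654.

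Neutrophil genes that the rule did not use were present in the members. In counts per 1000000 UMIs (CPM), before any other scaling, Csf3r, the receptor for the neutrophil growth factor G-CSF, stood at 1061 to 1527 in members and 22.8 to 32.5 in B cells of the same libraries (kept cells with at least 3 Cd79a and Cd79b UMIs and under 1% from S100a8 and S100a9), the gelatinase gene Mmp9 at 1401 to 1582 against 24.1 to 35.8, and Itgam, the CD11b chain, at 587 to 679 against 8.57 to 37.8. Against the immature neutrophils of the same libraries, defined further on, these genes did not all go one way. Csf3r stood at 268 to 311 and Mmp9 at 1113 to 1287 CPM in immature cells, below the members, while Itgam at 750 to 920, Ly6g at 1542 to 2988 (615 to 1403 in members) and Cd177 at 981 to 1193 (386 to 502) were higher there. In Il1b-rich neutrophils, also defined further on, Csf3r stood at 2082 to 3243 CPM, above the members, and Mmp9 at 1034 to 1162, below them. High Csf3r was thus not particular to the members. The 7 B cell markers summed to 422 and 1202 CPM in WT, 109 and 95.4 after vehicle and 86.7 and 61.5 after IACS-70654, and none of them was at 0 in any library. The immunoglobulin gene Ighm alone gave 129.7 and 864.6 CPM of the WT sums. The 6 T and NK cell markers summed to 250 and 242, 173 and 167, and 71.6 and 53.2 CPM, mostly from Cd3d, with Cd3e at 0 to 1.71. The 9 monocyte markers summed to 148 to 242 CPM, 6 dendritic cell markers to 21.4 to 111, and 6 erythroid markers to 2.38 to 17.1. The 8 markers of neutrophil precursors summed to 546 and 660 CPM in WT, 421 and 408 after vehicle and 484 and 470 after IACS-70654. In each library 43.8% to 46.9% of members held 2 or more UMIs of these 8 genes, so precursor mRNA was not absent.

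Members held 2235806 and 2336214 UMIs in WT, 5043599 and 6171315 after vehicle and 4103774 and 5153444 after IACS-70654. The median member had 2690 and 2696, 3482 and 3521.5, and 4020.5 and 4021 UMIs in the same order, so depth per cell rose from WT to vehicle to drug. No barcode was shared between libraries. Replicate libraries differed by more than independent sampling of single UMIs would give in every group, with a chi-square per degree of freedom of 2.846 in WT, 1.24 in vehicle and 1.897 in IACS-70654. UMIs come grouped in cells, so this value cannot tell a difference between libraries from the sampling of unlike cells. Immunoglobulin Ighm stood apart in 1 WT library, at 129.7 and 864.6 CPM in the WT libraries, and changes of that gene are not read here.

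The first question was how many neutrophils met the rule in each group. Members made up 34.5% and 37.5% of non-cycling neutrophils in WT, 42.7% and 42.9% after vehicle and 36.2% and 35.3% after IACS-70654. Vehicle libraries were thus higher than all 4 others, and WT and IACS-70654 overlapped. The difference was 6.81 points for vehicle against WT and -7.02 points for IACS-70654 against vehicle, and an exact two-sided permutation test over libraries gave p = 0.333 for each, the smallest that 2 against 2 libraries allow. IACS-70654 and WT differed by -0.210 points (exact permutation p = 1). With cells thinned to 2000 UMIs before the rule was applied, and cells under that depth left out, the shares were 23.9% and 27.2%, 32.0% and 33.2%, and 26.2% and 25.7%. These are not shares of the same cells. Non-cycling neutrophils went from 2305 and 2144 to 2223 and 2098 in WT and from 3202 and 3867 to 3247 and 3930 after vehicle. After IACS-70654 they went from 2690 and 3449 to 3013 and 3856. Of all kept CD45+ cells, members were 17.4% and 18.3%, 26.7% and 27.2%, and 20.0% and 19.8%. With a limit of 3 Cxcr2 UMIs in place of 2, IACS-70654 exceeded WT by 4.599 points (exact permutation p = 0.333). A share says nothing of the number of cells in the marrow, which was not measured.

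**Figure D1:**
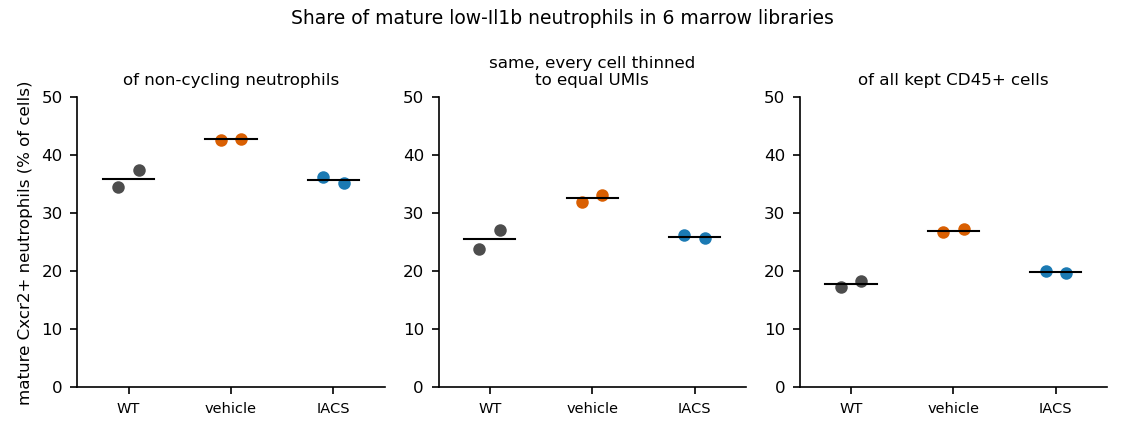
Share of members in each library (y axis, percent of cells) by group (x axis), as a share of non-cycling neutrophils, the same after thinning cells to 2000 UMIs with cells under that depth left out, and as a share of all kept CD45+ cells. Points are libraries and bars are group means. In each panel the 2 vehicle libraries lie above the other 4.

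To find which genes differed, UMIs were summed over the members of each library and tested with edgeR on all 6 libraries together. A gene rose or fell where its Benjamini-Hochberg adjusted p was below 0.01 and its log2 change was larger than 0.5 in either direction. Levels of single genes below are CPM with TMM scaling, a library scaling that assumes most genes are alike. Of 9840 genes tested, 466 rose (4.74%) and 355 fell (3.61%) in vehicle against WT. In IACS-70654 against vehicle 838 rose (8.52%) and 897 fell (9.12%), and in IACS-70654 against WT 784 rose (7.97%) and 929 fell (9.44%). Counts of listed genes below stand beside these shares, and a list near them is not read as a result about its members. Scaling by total UMIs alone, chosen after the data were seen, shifts the median of all genes by -0.215 in vehicle against WT and 0.291 in IACS-70654 against vehicle on the log2 scale, and the counts become 230 up and 763 down, and 1972 up and 365 down. Without vehicle replicate 2 the rises under drug numbered 506. DESeq2 called 255 up and 638 down under drug against vehicle, so that 28.6% of its calls were rises. With DESeq2 size factors, edgeR called 822 up and 914 down in the same comparison, so that split went with the DESeq2 test and not with its scaling. Calls of small changes therefore depend on the scaling and on the test, and changes are given relative to the median gene. Some lists below also carry counts at an unadjusted p under 0.05, for which no share of all genes is given. At an edgeR adjusted p under 0.05 with no limit on the change, 1241 genes were higher and 936 lower in vehicle against WT. Under drug against vehicle 1677 were higher and 2200 lower. The unadjusted counts of all genes are at least as large, so those of lists are not read as results about the lists.

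**Figure D2:**
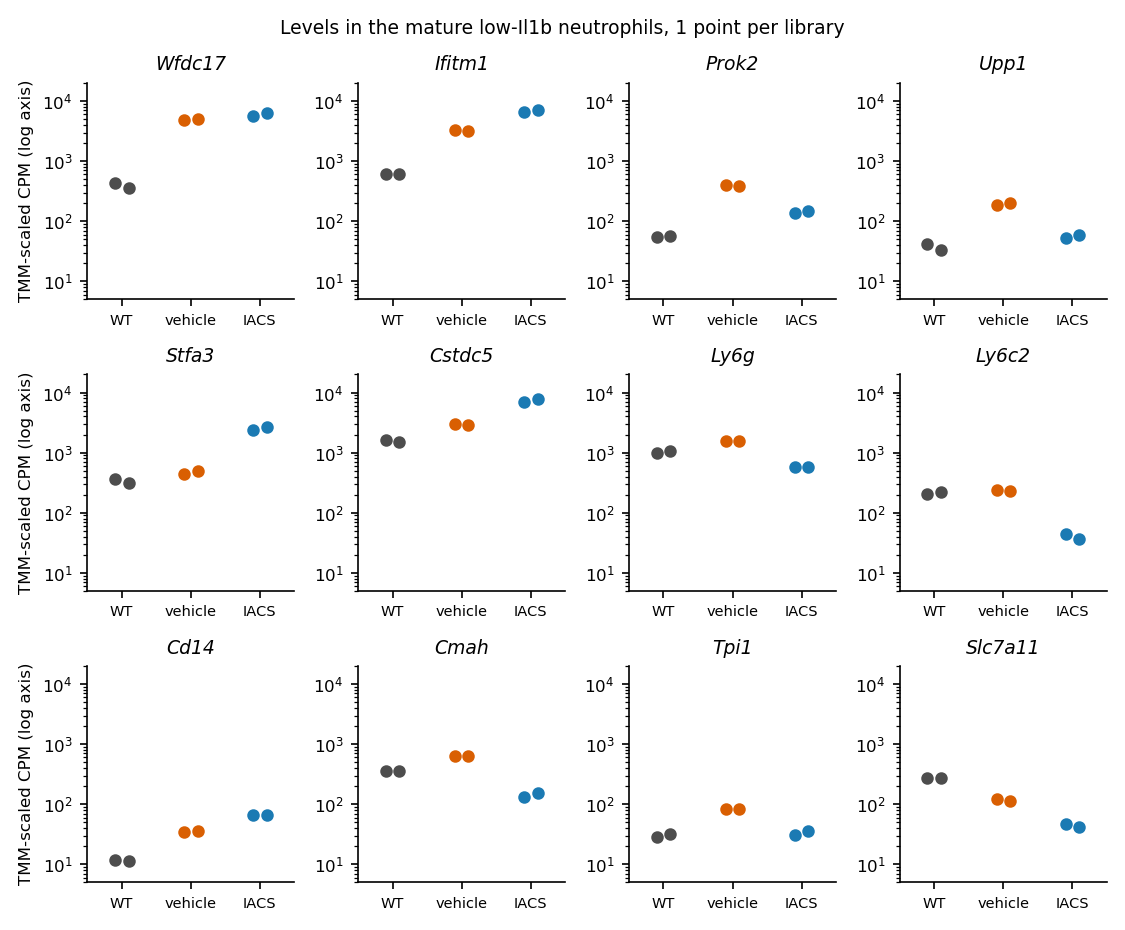
Levels of 12 genes in the members (y axis, TMM-scaled CPM on a log axis) by group (x axis), 1 point per library. Wfdc17 and Ifitm1 stand lowest in WT, Stfa3 and Cstdc5 highest in IACS-70654, and Prok2, Upp1 and Tpi1 highest in vehicle.

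Apart from the genes of the lists, the genes named were those with the largest called changes among genes with a mean of at least 5 log2 CPM whose groups did not overlap, so their lack of overlap was part of the choice. In vehicle against WT, Wfdc17 led the rises among them. Wfdc17, a small secreted WAP-domain protein of myeloid cells, stood at 435 and 352 CPM in WT, 4811 and 5108 after vehicle and 5742 and 6318 after IACS-70654. The vehicle and drug libraries lay far above WT, with a change of 3.66 ± 0.14 (log2 ± SE; edgeR adjusted p = 0.00094) against WT. A Wfdc17 UMI was found in 23.5% and 21.9% of WT members, 78.7% and 77.8% of vehicle members and 90.9% and 91.6% of IACS-70654 members after each was thinned to 1000 UMIs, against at most 9.09% of B cells in a library. Its adjusted p rose to 0.01665 and 0.01724 without vehicle replicate 1 or 2, at changes of 3.71 and 3.62. Ifitm1, an interferon-inducible membrane protein, rose in 2 steps, from 602 and 621 in WT to 3333 and 3236 after vehicle and 6560.0 and 7098 after IACS-70654. No library of one group overlapped another, and the changes were 2.43 ± 0.035 for the tumor and 1.06 ± 0.033 for the drug (edgeR adjusted p = 2.2e-38 and 5.7e-27).

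Other genes with large rises in vehicle included secreted factors. Prok2, the chemokine-like protein Bv8 that recruits myeloid cells and promotes vessel growth, was at 55.6 and 56.4 CPM in WT, 396 and 386 after vehicle and 138 and 146 after IACS-70654. Drug libraries thus lay between WT and vehicle, with changes of 2.80 ± 0.064 (edgeR adjusted p = 7.2e-36) and -1.46 ± 0.049 (7.4e-29). Lrg1, a secreted leucine-rich glycoprotein stored in neutrophil granules, stood at 449 and 477 CPM in WT and 1402 and 1399.9 after vehicle (1.60 ± 0.041). Igfbp6, an insulin-like growth factor binding protein, rose from 5.17 and 2.52 to 41.2 and 39.7 (3.39 ± 0.23) and stood at 46.9 and 42.5 under drug. Upp1, which splits uridine, rose from 41.4 and 33.2 to 188 and 200.3 (2.38 ± 0.097) and was 53.6 and 60.05 in IACS-70654 (-1.77 ± 0.079 against vehicle). The mitochondrial membrane protein Tspo rose by 1.85 ± 0.040, the metalloreductase Steap4 by 2.00 ± 0.065 and the cytokine Mif by 1.60 ± 0.15, all with edgeR adjusted p at or below 8.8e-12.

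Several cytokine receptor genes were higher in vehicle. Of 23 growth factor and cytokine receptors tested, 5 rose and 0 fell by edgeR and by DESeq2, and at an unadjusted p under 0.05 11 were higher and 2 lower. Of 15 JAK-STAT genes 2 rose and 0 fell (1 and 0 by DESeq2, and 7 and 0 at an unadjusted p under 0.05). Il4ra, the shared chain of the IL-4 and IL-13 receptors, stood at 33.2 and 32.8 CPM in WT and 100.3 and 107 after vehicle (1.65 ± 0.11). Its partner Il13ra1 stood at 89.3 and 73.2 CPM in WT and 208 and 200.8 after vehicle (1.33 ± 0.071). Csf2rb2, a close copy of the GM-CSF receptor chain Csf2rb, was at 14.2 and 7.57 CPM in WT and 31.3 and 35.0 after vehicle (1.61 ± 0.19), and reads of the pair may be split between them. Socs3, which restrains cytokine receptors that signal through STAT3, rose from 50.9 and 46.7 to 132 and 125 (1.39 ± 0.094). Under drug 2 of the receptors rose and 5 fell, or 5 and 0 with total-UMI scaling, and Il6st, the shared receptor chain of the IL-6 family, went from 3.13 and 3.61 CPM to 9.42 and 8.32 (1.37 ± 0.30; DESeq2 adjusted p = 0.0349). Csf3r itself was at 1379.5 and 1415 CPM in WT and 1679.8 and 1702 after vehicle, a change of 0.28 ± 0.036 that was under the size limit, and Stat3 changed by 0.20 ± 0.051.

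Among the genes that fell in vehicle were Fkbp5, Tsc22d3, Slc7a11 and Thbs1. Fkbp5, a co-chaperone of the glucocorticoid receptor, stood at 140.2 and 137 CPM in WT, 47.7 and 55.3 after vehicle and 82.1 and 81.2 after IACS-70654. WT libraries were highest and vehicle libraries lowest, a change of -1.42 ± 0.092 (edgeR adjusted p = 1.1e-17). Tsc22d3, the glucocorticoid-induced leucine zipper, fell from 167 and 172 to 81.2 and 80.7 (-1.07 ± 0.075). Slc7a11, the cystine transporter, fell in both steps, from 269 and 274 in WT to 122 and 112 after vehicle and 47.8 and 41.8 after IACS-70654 (-1.22 ± 0.066 and -1.39 ± 0.076). Thbs1, the matrix protein thrombospondin, fell from 34.9 and 28.6 to 3.36 and 0.903 (-3.96 ± 0.29, edgeR adjusted p = 3e-14) and stood at 18.8 and 16.6 under drug (3.120 ± 0.30 against vehicle). Cxcr4, the marrow retention receptor, was at 95.7 and 96.8 CPM in WT, 58.6 and 65.9 after vehicle and 40.8 and 38.5 after IACS-70654, so each step was lower than the last, with changes of -0.62 ± 0.10 and -0.66 ± 0.10, the latter not called with total-UMI scaling (-0.38) or without members that held 2 or more UMIs of other-lineage markers (-0.46).

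B cell genes were also lower in vehicle, and the libraries held fewer B cells. The transcription factor Ebf1 stood at 181 and 207 CPM in WT, 53.7 and 38.3 after vehicle and 34.6 and 22.97 after IACS-70654 and Bach2 at 89.3 and 82.9 CPM in WT, 20.8 and 23.7 after vehicle and 11.4 and 7.96 after IACS-70654. B cells numbered 377 and 409 in WT, 96 and 104 after vehicle and 40 and 66 after IACS-70654. A short set of other-lineage markers was used to leave members out, and it includes Cd79a, Cd79b and Cd3d but not Ebf1 or Bach2. Members with 2 or more UMIs of it numbered 229 and 224 in WT, 343 and 399 after vehicle and 164 and 168 after IACS-70654. With Cd3d not counted, they numbered 62 and 56, 88 and 111, and 98 and 104 in the same order. The set is shorter than the marker lists summed above, so members with UMIs of other listed markers alone stayed in. Without the members found with Cd3d counted, the vehicle against WT change of Ebf1 went from -2.09 to -0.41 (edgeR adjusted p = 0.3403) and that of Bach2 from -1.94 to 0.11 (adjusted p = 0.9056). In IACS-70654 against WT, Ebf1 was still called without them (-1.20, edgeR adjusted p = 0.00028) and Bach2 was not (-0.23, adjusted p = 0.7262). Of 7 B cell markers tested 5 fell and 0 rose in vehicle against WT. MHC class II genes went the same way, with 3 of 6 lower in vehicle than in WT (5 with total-UMI scaling). Without the members that held other-lineage markers, 0 of the 3 B cell markers still tested and 0 of the 3 MHC class II genes still tested fell by edgeR, with medians of -0.41 and -0.036. The part of B cell RNA in these changes, with or without those members, was not tested.

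Interferon-response genes were higher in vehicle than in WT. Of 39 tested, 21 rose and 0 fell, with a median log2 change of 0.514 against -0.00599 for all genes. DESeq2 called 15 up and 0 down, and at an unadjusted p under 0.05 26 were higher and 1 lower. With total-UMI scaling 9 rose and 1 fell, and the median was 0.308. Ifitm3, which blocks entry of enveloped viruses, stood at 1089.7 and 1164 CPM in WT, 2673 and 2603 after vehicle and 1647 and 1704 after IACS-70654. Vehicle was highest, with changes of 1.23 ± 0.036 for the tumor and -0.65 ± 0.035 for the drug, the latter -0.38 and not called with total-UMI scaling. Ifitm6 stood at 1179 and 1239 CPM in WT and 3202 and 3083 after vehicle (1.38 ± 0.034) and Ifitm2 at 1443 and 1393 CPM in WT and 3589 and 3429 after vehicle (1.31 ± 0.033). These genes are members of one family with similar sequences. Oasl2, of the 2',5'-oligoadenylate synthetase family, stood at 9.49 and 10.5 CPM in WT and 40.7 and 34.0 after vehicle (1.89 ± 0.20) and Trim30a at 146 and 154 CPM in WT and 286 and 273 after vehicle (0.90 ± 0.057).

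Under IACS-70654 the interferon list split. Against vehicle, 5 of 39 genes rose and 8 fell, the median change was -0.226, and with total-UMI scaling 10 rose and 2 fell, with a median of 0.0502. Ifit1, an RNA-binding inhibitor of viral translation, stood at 60.2 and 48.6 CPM after vehicle and 80.8 and 103 after IACS-70654 (0.77 ± 0.12, edgeR adjusted p = 4.4e-06). Its call ended without the upper limit on Il1b (0.46). The schlafen gene Slfn4 stood at 931 and 916 CPM after vehicle and 442 and 468 after IACS-70654 (-1.02 ± 0.042). The antiviral gene Rsad2 stood at 107 and 82.3 CPM after vehicle and 46.7 and 56.8 after IACS-70654 (-0.86 ± 0.11) and Isg15, a ubiquitin-like modifier, at 112 and 103 CPM after vehicle and 60.8 and 69.5 after IACS-70654 (-0.71 ± 0.089, or -0.43 and not called with total-UMI scaling). Against WT, 16 of the 39 were higher under drug and 1 was lower.

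Cells with several interferon genes were few in every library. After thinning to 1000 UMIs, members with at least 3 of 7 interferon genes (Ifit1, Ifit2, Ifit3, Isg15, Rsad2, Oasl2 and Irf7) were 2.02% and 1.75% of members in WT, 1.76% and 1.27% after vehicle and 1.34% and 2.30% after IACS-70654. The groups overlapped, and the differences of -0.367 and 0.307 points had exact permutation p-values of 0.667. With at least 2 of the 7 genes the shares were 4.42% and 4.74%, 6.46% and 6.48%, and 6.09% and 6.50%. Of 40 to 409 B cells per library none met either limit, with exact (Clopper-Pearson) 95% upper bounds of 0.898% to 8.81%, which cover counting error only. Without thinning, the shares were 5.16% and 4.98%, 9.0% and 8.38%, and 10.9% and 12.2%, in the order of the depth per cell.

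**Figure D3:**
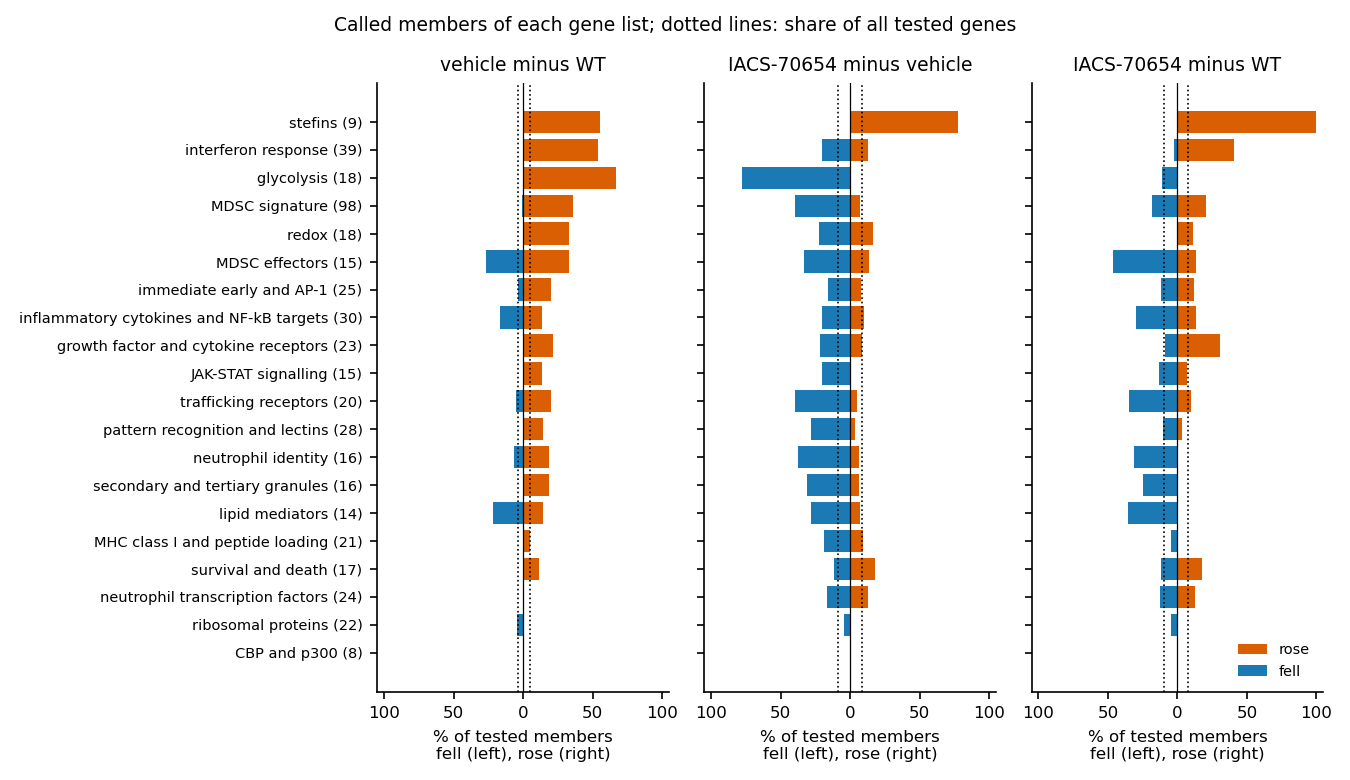
Share of the tested members of each gene list that fell (left, blue) or rose (right, orange) in each comparison (x axis, percent of tested members; the number tested stands beside each list). Dotted lines mark the share of all 9840 genes that fell or rose. Stefins rose and glycolysis genes rose and then fell in larger shares than all genes.

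Under IACS-70654, 7 of the 9 stefin genes tested rose. Stefins encode cytosolic inhibitors of cathepsins and other cysteine proteases. Those with a promoter entry are similar copies that lie close together on chromosome 16, so the split of reads between copies is uncertain. Of 15 names listed, 11 were found and 9 passed the filter on low counts. The 82 bases that end in the longest stretch shared by all 7 tested stefins with a promoter entry, shown in capitals, are printed because they show how alike the copies are just before their start. Sequences are from RefSeq in build GRCm38.p6, the assembly called mm10 in the submitters' notes.
Stfa1 (chr16:36277045-36277126, plus strand): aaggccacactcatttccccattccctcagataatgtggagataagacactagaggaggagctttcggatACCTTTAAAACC
Stfa2 (chr16:36408384-36408465, minus strand): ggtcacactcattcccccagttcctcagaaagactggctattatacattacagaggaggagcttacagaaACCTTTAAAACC
Stfa2l1 (chr16:36156705-36156786, plus strand): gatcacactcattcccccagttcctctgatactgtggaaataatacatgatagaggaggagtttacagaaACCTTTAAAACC
Stfa3 (chr16:36455415-36455496, minus strand): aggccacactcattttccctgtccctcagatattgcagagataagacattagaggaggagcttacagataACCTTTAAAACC
Cstdc4 (chr16:36184110-36184191, plus strand): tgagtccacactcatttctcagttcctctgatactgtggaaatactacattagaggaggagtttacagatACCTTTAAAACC
Cstdc5 (chr16:36367571-36367652, minus strand): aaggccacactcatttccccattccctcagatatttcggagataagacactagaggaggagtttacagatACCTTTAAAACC
Csta3 (chr16:36210253-36210334, plus strand): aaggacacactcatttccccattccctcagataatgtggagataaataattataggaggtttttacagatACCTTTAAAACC
The stretch ACCTTTAAAACC was found by comparing these 7 sequences. Searched on both strands, it is in 0.0335% of 32851 windows of 250 bases before RefSeq starts, and 0.0407% of 27025 genes hold it. Identity over the 82 bases, without gaps, ran from 32.9% to 92.7% between pairs, with a median of 54.9%. An added or missing base puts an ungapped pair out of step, so low values understate how alike 2 copies are. Pairs with Stfa3, whose window holds an added base just before the shared stretch, were the lowest, at 32.9% to 39%. A match is a description of letters and names no factor.

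Against vehicle, 7 of the 9 stefins rose and 0 fell by edgeR and by DESeq2, with a median log2 change of 0.864. All 9 were higher at an unadjusted p under 0.05, and 9 rose with total-UMI scaling. Stfa3 stood at 361 and 308 CPM in WT, 447 and 491 after vehicle and 2410.5 and 2636 after IACS-70654, so the drug libraries lay far above the other 4 (2.43 ± 0.097, edgeR adjusted p = 2.7e-05). A Stfa3 UMI was found in 15.6% and 18.1% of thinned vehicle members and 49.5% and 50.1% of drug members, against at most 9.09% of B cells. Cstdc5 rose in both steps and stood at 1647 and 1520.3 CPM in WT, 3024 and 2845 after vehicle and 6871 and 7704 after IACS-70654 (0.89 ± 0.076 and 1.31 ± 0.076). Cstdc6 did likewise at 263 and 284 CPM in WT, 684 and 614 after vehicle and 1109.6 and 1170.0 after IACS-70654 (1.24 ± 0.051 and 0.81 ± 0.046), and so did Stfa2 at 421 and 495 CPM in WT, 1124 and 1020.5 after vehicle and 2633 and 2946 after IACS-70654 (1.23 ± 0.12 and 1.38 ± 0.12). Csta3 stood at 29.3 and 36.6 CPM in WT, 28.0 and 23.5 after vehicle and 105 and 83.9 after IACS-70654, with -0.37 ± 0.16 in vehicle against WT and a rise under drug (1.878 ± 0.12). Cstdc4 and Stfa2l1 changed by 0.86 ± 0.033 and 0.83 ± 0.038. Against WT all 9 were higher under drug. In vehicle against WT 5 of 9 rose, and with total-UMI scaling 4 rose and 1, Csta3, fell. Some calls of Stfa2 and Cstdc5 ended when 1 library was left out, at changes of similar size. For Stfa2 the vehicle call ended without any 1 of the WT and vehicle libraries (1.12 to 1.35) and with at least 3 Cxcr2 UMIs (1.22), and the drug call without WT replicate 2 or either vehicle replicate (1.31 to 1.45) and with at least 3 Cxcr2 UMIs (1.36). For Cstdc5 the vehicle call ended without WT replicate 1 (0.96), WT replicate 2 (0.83) or vehicle replicate 1 (0.85), and the drug call without WT replicate 2 (1.31). Without WT replicate 2 the calls of drug against WT also ended for Stfa2 (2.73, edgeR adjusted p = 0.0113) and Cstdc5 (2.15, adjusted p = 0.0121).

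Glycolysis genes rose with the tumor and fell with the drug. Of 18 tested, 12 rose and 0 fell in vehicle against WT, with a median of 0.666, and 14 fell and 0 rose in IACS-70654 against vehicle, with a median of -0.836. DESeq2 called 11 up and 0 down, and 14 down and 0 up. At an unadjusted p under 0.05 the counts were 15 up and 1 down, and 18 down and 0 up. With total-UMI scaling 9 rose with the tumor and 10 fell with the drug. Tpi1, triosephosphate isomerase, stood at 28.9 and 31.6 CPM in WT, 83.3 and 81.8 after vehicle and 30.5 and 35.3 after IACS-70654. Vehicle libraries stood apart, and WT and drug libraries overlapped, with changes of 1.45 ± 0.12 and -1.32 ± 0.11 (edgeR adjusted p = 2.3e-13 and 8.8e-15). Ldha, which makes lactate, stood at 121 and 121 CPM in WT, 257 and 251 after vehicle and 139 and 144 after IACS-70654 (1.07 ± 0.059 and -0.84 ± 0.051), and Pgk1, phosphoglycerate kinase, at 168 and 164 CPM in WT, 293 and 284 after vehicle and 141 and 152 after IACS-70654 (0.80 ± 0.055 and -0.97 ± 0.050). Eno1, the enolase, followed the same course at 179.8 and 184 CPM in WT, 338 and 314 after vehicle and 168 and 175 after IACS-70654 (0.84 ± 0.054 and -0.92 ± 0.050).

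Of the transporters on the list, Slc16a3 and Slc2a1 were called higher in vehicle than in WT and lower under drug than in vehicle. The Slc16a3 rise was not called with total-UMI scaling (0.38), without members that held other-lineage markers (0.47) or with the rule applied after thinning (0.47). Slc16a3, the lactate exporter MCT4, stood at 233 and 221 CPM in WT, 359 and 326 after vehicle and 109.5 and 116 after IACS-70654, so drug libraries lay below WT as well (-1.59 ± 0.054 against vehicle and -1.004 ± 0.060 against WT). Slc2a1, the glucose transporter GLUT1, stood at 47.0 and 46.7 CPM in WT, 84.8 and 84.2 after vehicle and 39.7 and 49.0 after IACS-70654 (0.85 ± 0.11 and -0.92 ± 0.10). Against WT only Slc16a3 and Slc2a3 of the 18 genes were called, both lower under drug, Slc2a3 by -0.61 ± 0.044. Slc2a3, another glucose transporter, changed by 0.08 ± 0.043 in vehicle against WT (edgeR adjusted p = 0.229) and by -0.69 ± 0.043 under drug against vehicle, the latter not called with total-UMI scaling (-0.41). Hif1a, whose protein drives many of these genes in low oxygen, stood at 165 and 133 CPM in WT, 225 and 244 after vehicle and 164 and 155 after IACS-70654 (0.66 ± 0.073 for the tumor, 0.45 and not called with total-UMI scaling). Its drug change of -0.56 ± 0.065 was not called without vehicle replicate 2 (-0.50), with thinned members (-0.39) or with total-UMI scaling (-0.28).

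The promoters of 3 of these genes are shown because they hold the core of the hypoxia response element, ACGTG on either strand, in capitals.
Pgk1 (chrX:106186929-106187033, plus strand): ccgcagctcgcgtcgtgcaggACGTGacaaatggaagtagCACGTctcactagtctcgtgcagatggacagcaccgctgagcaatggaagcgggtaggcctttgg
Ldha (chr7:46845710-46845794, plus strand): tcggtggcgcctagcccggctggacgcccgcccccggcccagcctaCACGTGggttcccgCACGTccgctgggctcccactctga
Slc16a3 (chr11:120948983-120949066, plus strand): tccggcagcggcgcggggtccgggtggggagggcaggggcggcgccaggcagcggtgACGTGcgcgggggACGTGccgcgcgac
Of 17 glycolysis genes with a promoter entry, 9 hold ACGTG in the 250 bases before the start, and 18.5% of 27025 genes do. The core is 5 bases long and both strands were searched, and no binding was measured.

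**Figure D4:**
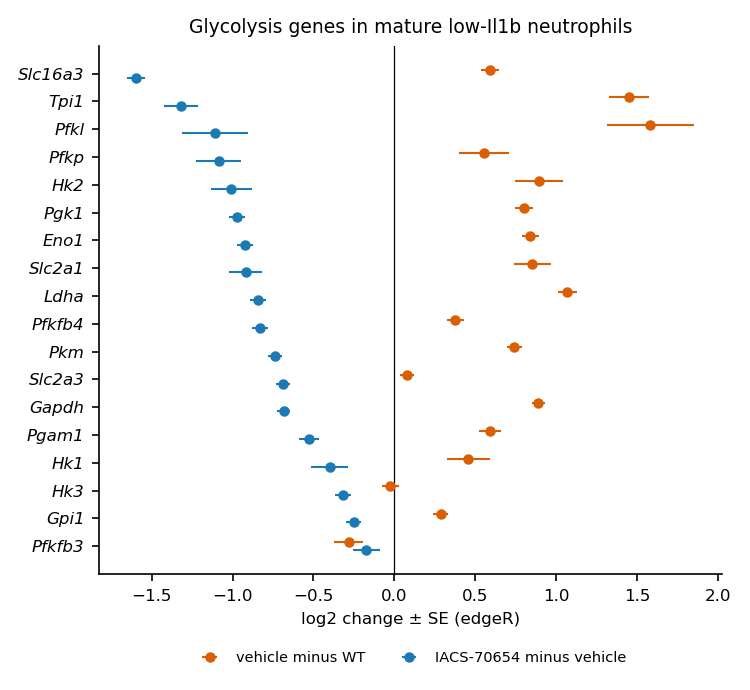
Log2 changes of 18 glycolysis genes in the members (x axis, edgeR estimate with standard error) for vehicle minus WT (orange) and IACS-70654 minus vehicle (blue), ordered by the drug change. All 18 drug changes lie below 0, of which 14 passed the test; both comparisons share the vehicle libraries.

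Ly6g and the Ly6c genes were lower under the drug. Ly6g, the antigen most used to identify mouse neutrophils, stood at 987 and 1057 CPM in WT, 1561 and 1563 after vehicle and 582 and 573 after IACS-70654. Drug libraries lay below WT as well as vehicle, with changes of -1.44 ± 0.039 against vehicle (edgeR adjusted p = 1.4e-32) and -0.82 ± 0.039 against WT. Ly6c1 and Ly6c2, near-identical copies of another Ly6 antigen whose reads may be split between them, stood at 229 and 237 CPM after vehicle and 38.6 and 34.5 after IACS-70654 and at 236 and 233 CPM after vehicle and 43.8 and 36.7 after IACS-70654 (-2.68 ± 0.068 and -2.55 ± 0.068). A Ly6c2 UMI was found in 16.3% and 16.6% of thinned vehicle members and 4.75% and 3.29% of drug members, while up to 7.50% of B cells in a library held one, a share that the drug members did not exceed and that is not read as expression. Of 16 neutrophil identity genes outside the rule, 6 fell and 1 rose against vehicle, and with total-UMI scaling 2 fell and 2 rose. Csf3r stood at 1679.8 and 1702 CPM after vehicle and 977 and 1015 after IACS-70654 (-0.76 ± 0.036, or -0.49 and not called with total-UMI scaling) and the decoy receptor Il1r2 at 192 and 194 CPM after vehicle and 303 and 321 after IACS-70654 (0.69 ± 0.049).

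Of 20 trafficking receptors tested, 8 fell and 1 rose under drug against vehicle, or 2 and 2 with total-UMI scaling. Cxcr1, the second receptor for CXC chemokines beside Cxcr2, stood at 4.74 and 7.15 CPM in WT, 18.6 and 23.1 after vehicle and 3.14 and 1.27 after IACS-70654, highest in vehicle and lowest under drug (-3.30 ± 0.28, edgeR adjusted p = 8.5e-14). The chemokine receptor Ccr1 stood at 560.5 and 535 CPM after vehicle and 351 and 347 after IACS-70654 (-0.65 ± 0.046), but was not called with total-UMI scaling (-0.37). Itga4, the integrin chain that binds VCAM-1, was the 1 called rise, at 98.5 and 99.3 CPM after vehicle and 163 and 166 after IACS-70654 (0.73 ± 0.066).

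Genes of the rule were left out of every list, and the lists share some genes. Of a published MDSC signature that the study applied, 101 of the remaining genes were found in the files and 98 were tested. In vehicle against WT 35 rose and 1 fell (median 0.292), and in IACS-70654 against vehicle 7 rose and 39 fell (median -0.395). With total-UMI scaling the counts were 22 and 3, and 9 and 12, with medians of 0.0864 and -0.119. Against WT, 20 of the 98 were higher under drug and 18 lower. Changes of the signature under drug against vehicle ran from -2.39 to 2.43, the values of Fabp5 and of the stefin Stfa3. The highest under drug against WT was 3.94, the value of Wfdc17. Cd84, a surface receptor used to mark MDSCs, stood at 822 and 816 CPM in WT, 688 and 654 after vehicle and 397 and 396 after IACS-70654 (-0.76 ± 0.043, under total-UMI scaling -0.48 and no longer called). Clec4e, the receptor Mincle, stood at 310.1 and 289 CPM in WT, 477 and 477 after vehicle and 249.5 and 256 after IACS-70654 (0.67 ± 0.050, or 0.47 and not called with total-UMI scaling, and -0.92 ± 0.048). Of 15 MDSC effectors tested, 5 rose and 4 fell in vehicle against WT and 2 rose and 5 fell under drug, or 1 and 5, and 3 and 1, with total-UMI scaling. Among them Arg2, an arginase, was at 582 and 590.4 CPM after vehicle and 374 and 377 after IACS-70654 (-0.64 ± 0.045, or -0.36 and not called with total-UMI scaling). The highest effector change under drug against vehicle was a rise of 3.12, the value of Thbs1.

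Acod1 and Fabp5 were among the largest falls under drug. Acod1, which makes itaconate, stood at 73.7 and 55.5 CPM in WT, 141 and 133 after vehicle and 21.1 and 26.2 after IACS-70654 (1.08 ± 0.11 and -2.52 ± 0.11, edgeR adjusted p = 6.5e-11 and 5.4e-22). Fabp5, a fatty acid carrier, stood at 34.9 and 39.5 CPM in WT, 81.5 and 92.8 after vehicle and 17.5 and 15.9 after IACS-70654 (1.23 ± 0.12 and -2.39 ± 0.12). Both genes were highest in vehicle and lowest under drug. Cmah, which makes the sialic acid Neu5Gc, stood at 361 and 355 CPM in WT, 642 and 632 after vehicle and 132 and 153 after IACS-70654 (-2.16 ± 0.054). Hdc, the histamine-forming decarboxylase, stood at 662 and 685 CPM in WT, 843 and 784 after vehicle and 289 and 271 after IACS-70654 (-1.54 ± 0.046), and G0s2, an inhibitor of lipolysis, at 454 and 456 CPM in WT, 468 and 449 after vehicle and 153 and 150.3 after IACS-70654 (-1.60 ± 0.049). For both genes the drug libraries were lower than the other 4, and for G0s2 WT and vehicle overlapped. Chil1, a chitinase-like granule protein, stood at 210.4 and 229 CPM in WT, 370.2 and 374 after vehicle and 116 and 117 after IACS-70654 (-1.67 ± 0.052).

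Jun, Cd14 and Zeb2 were among the genes that rose under drug. Jun, an AP-1 transcription factor, stood at 65.5 and 68.1 CPM in WT, 47.9 and 49.3 after vehicle and 169 and 159 after IACS-70654 (1.75 ± 0.080, edgeR adjusted p = 1.4e-23), while Junb was at 1603 and 1553 CPM after vehicle and 999 and 1024 after IACS-70654 (-0.64 ± 0.037, or -0.36 and not called with total-UMI scaling, and -0.50 and not called with thinned members). Cd14, the lipopolysaccharide co-receptor, rose in both steps, at 11.6 and 11.4 CPM in WT, 34.0 and 35.6 after vehicle and 66.9 and 66.2 after IACS-70654 (1.60 ± 0.18 and 0.93 ± 0.11). Zeb2, a transcriptional repressor of myeloid development, stood at 231 and 235 CPM after vehicle and 447 and 452 after IACS-70654 (0.95 ± 0.049), and Cybb, the membrane subunit of the NADPH oxidase, at 317 and 323 CPM after vehicle and 494 and 477 after IACS-70654 (0.60 ± 0.047). The chemokines Ccl3 and Ccl9 stood at 13.9 and 12.8 CPM after vehicle and 30.1 and 27.9 after IACS-70654 and 13.4 and 15.7 CPM after vehicle and 29.4 and 34.5 after IACS-70654 (1.116 ± 0.16 and 1.13 ± 0.15). Prdx1, a peroxide-reducing enzyme, rose by 0.98 ± 0.10, while thioredoxin, Txn1, fell by 0.97 on the log2 scale. The signalling genes Dock4, Camk2d and Prkch rose by 2.05, 1.78 and 1.505. Sntb1 fell in vehicle and returned under drug, at 73.7 and 69.4 CPM in WT, 19.2 and 15.7 after vehicle and 66.0 and 54.8 after IACS-70654 (-2.04 ± 0.14 and 1.79 ± 0.13).

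Set directly against WT, drug-treated members differed in genes of many kinds. Cd14 stood at 11.6 and 11.4 CPM in WT and 66.9 and 66.2 under drug (2.53 ± 0.16, edgeR adjusted p = 2.4e-18). The protein kinase C gene Prkch was at 16.4 and 9.68 in WT and 60.8 and 61.5 under drug (2.23 ± 0.17) and Apoc2, an apolipoprotein that activates lipoprotein lipase, went from 15.5 and 12.6 to 50.3 and 61.9 (2.00 ± 0.17). Slc7a11 changed by -2.60 ± 0.075. Il1rn, the secreted antagonist of the IL-1 receptor, fell in both steps, from 109 and 106 in WT to 68.5 and 61.9 in vehicle and 26.9 and 28.2 under drug (-0.72 ± 0.10, -1.24 ± 0.11 and -1.96 ± 0.11 against WT). Scrg1, a small secreted protein, stood at 182 and 189 in WT, 87.7 and 91.7 in vehicle and 31.9 and 24.8 under drug (-2.72 ± 0.098 against WT).

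The counts of other gene groups follow, and most of their splits depended on the scaling. Of 18 redox genes 6 rose in vehicle (3 with total-UMI scaling), among them Gclm, a subunit of the enzyme that starts glutathione synthesis, at 50.02 and 50.5 CPM in WT and 129.8 and 134 after vehicle (1.39 ± 0.090), and under drug 3 rose and 4 fell (4 and 2). Of 30 inflammatory cytokines and NF-kB targets 4 rose and 5 fell in vehicle (3 and 6), and 3 rose and 6 fell under drug (7 and 2). Of 25 immediate early genes 5 rose and 1 fell (2 and 5), and then 2 rose and 4 fell (5 and 0). Of 28 pattern recognition receptors and lectins 4 rose and 0 fell in vehicle (2 and 1), and 1 rose and 8 fell under drug (1 and 4). Of 16 secondary and tertiary granule genes 3 rose in vehicle (1), and 1 rose and 5 fell under drug (1 and 3), including the protease gene Adam8, which went from 343 and 343 CPM to 169 and 170.2 (-1.02 ± 0.050).

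Of 24 neutrophil transcription factors 0 were called in vehicle by edgeR or DESeq2 (6 higher and 3 lower at an unadjusted p under 0.05), and 3 rose and 4 fell under drug (4 and 1 with total-UMI scaling). Foxo1, a forkhead factor, went from 5.15 and 8.85 CPM in vehicle to 18.0 and 16.8 under drug (1.27 ± 0.22), and Max, the partner of MYC, from 340.0 and 356 to 175 and 174 (-0.998 ± 0.049). Of 17 survival and death genes 3 rose and 2 fell under drug (4 and 1). Bid, which links death receptors to mitochondria, went from 79.9 and 72.6 to 39.5 and 36.9 (-0.997 ± 0.10), and the caspase gene Casp8 from 16.8 and 19.1 to 28.9 and 33.6 (0.80 ± 0.14, or 0.37 and not called with thinned members). Of 21 MHC class I and peptide loading genes 2 rose and 4 fell under drug (4 and 0). Of 14 lipid mediator genes 1 rose and 4 fell under drug (4 and 3), of 8 NADPH oxidase genes 1 rose, and of 10 azurophil granule genes 1 fell (0). The last 2 shares, 12.5% and 10%, were near the 8.52% and 9.12% of all genes that rose and fell under drug against vehicle. So were the rises of the inflammatory (10%), immediate early (8%), secondary and tertiary granule (6.25%) and transcription factor (12.5%) lists. The same held for rises of the MHC class I (9.52%) and lipid mediator (7.14%) lists and for falls of the survival list (11.8%). None of these is read as a result about its list.

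The genes of the drug's targets did not pass the test. Crebbp, which encodes CBP, stood at 214 and 217 CPM in WT, 225 and 223 after vehicle and 201.3 and 200.9 after IACS-70654 (-0.16 ± 0.049), and Ep300 at 233 and 226 CPM in WT, 216 and 234 after vehicle and 189 and 189 after IACS-70654 (-0.25 ± 0.050). Of 8 genes of the CBP and P300 list, none was called in any comparison by edgeR or DESeq2. At an unadjusted p under 0.05, 3 were higher in vehicle than in WT and 5 lower under drug than in vehicle. These unadjusted counts are not read as a result about the list, because no share of all genes at that p is given. Among all genes tested, 2200 were already lower under drug than in vehicle at an adjusted p under 0.05 with no limit on the change. Ep300 was lower under drug at an adjusted p of 4.9e-05 with a change under the size limit. Of 22 ribosomal protein genes 1 was called in each comparison, and with total-UMI scaling 6 fell in vehicle against WT and 2 rose under drug against vehicle.

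Cd3d, a chain of the T cell receptor complex, fell under drug. Of 6 T and NK cell markers 3 were tested, and Cd3e, with 13 UMIs in all members, and Trbc2, with 25, were too low for a fall to be detectable. Cd3d stood at 231 and 227 CPM in WT, 187 and 175 after vehicle and 50.9 and 38.0 after IACS-70654 (-2.04 ± 0.084, edgeR adjusted p = 8.8e-17). In CPM without TMM scaling, Cd3d ranged from 40.75 to 239.7 in members, while Cd3e stood at 0 to 1.71 and Trbc2 at 0 to 1.95 in the same cells, and Cd3d at 2.39 to 10.3 in B cells and 98.3 to 323 in immature neutrophils. Without members that held 2 or more UMIs of other-lineage markers the drug change was -1.65, but Cd3d is itself 1 of those markers, so its counts were removed by construction. With Cd3d not counted as a marker, a choice made after the data were seen, it was -2.08, and members that held Cd3d UMIs then stayed in.

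The changes were then compared with those in 2 other neutrophil classes of the same libraries, by a test of the interaction of class and group with the library as a block. Immature non-cycling neutrophils, 7741 cells with at least 1% of their UMIs from Camp, Ltf and Ngp, came first. The tumor change differed in 109 of 10773 genes (1.01%) and the drug change in 384 (3.56%). Without vehicle replicate 1 or 2 the tumor count was 61, and the drug count 249 or 225. Mif, Pam, Spata13, Tpi1 and Cd14 rose more in the members with the tumor. Mif changed by 1.60 in members and -0.16 in immature cells (difference 1.80 ± 0.22), at a mean of 4.46 log2 CPM over both classes. Cd14 changed by 1.60 in members and 0.58 in immature cells (difference 1.03 ± 0.22, edgeR adjusted p = 0.0009), and Pam, which amidates peptides, by 1.45 and 0.16 (1.30 ± 0.10). Ifitm1 differed both ways, since the tumor change was larger in members (0.98 ± 0.065) and the drug change smaller (-1.08 ± 0.052).

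The stefins differed under drug. Of 9 tested, the drug change was smaller in the members than in immature cells for 6 and larger for 0, with a median difference of -1.58, and at an unadjusted p under 0.05 it was smaller for 9. Stfa2l1 changed by 0.83 in members and 2.61 in immature cells, where it stood at 280.1 and 275 CPM in vehicle and 1673 and 1711 under drug (difference -1.82 ± 0.050, edgeR adjusted p = 1.7e-40). Cstdc5 reached 9632 and 9591 CPM under drug in immature cells, against 6871 and 7704 in the members, although it had been lower there in WT and vehicle. Each class was scaled by TMM in its own fit, so levels of the 2 classes are compared only roughly. Acod1 fell more in members (-2.52 against -0.83), and the drug change was lower in members for 5 of 18 glycolysis genes and higher for 0 (15 and 1 at an unadjusted p under 0.05). The unadjusted lean was not particular to glycolysis. It was 65 lower and 5 higher for 98 MDSC signature genes and 12 and 1 for 22 ribosomal protein genes, but 6 and 7 for 28 pattern recognition receptors and lectins. For the interferon list the drug change was lower in members than in immature cells for 12 of 39 genes and higher for 0, with a median difference of -0.318. The nuclear membrane protease Zmpste24 fell in immature cells (-1.42) and was 0.46 in members, a difference of 1.85 ± 0.16.

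**Figure D5:**
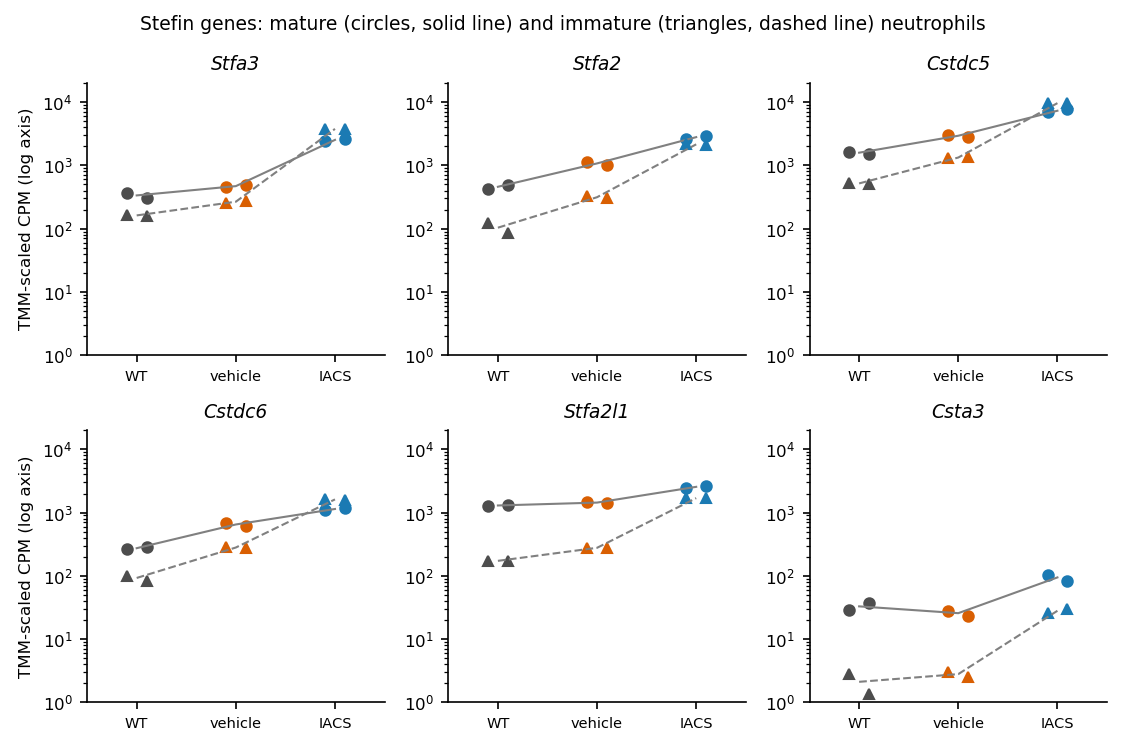
Levels of 6 stefin genes (y axis, TMM-scaled CPM on a log axis) by group (x axis) in mature members (circles, solid line through group means) and immature neutrophils (triangles, dashed line), 1 point per library and class. In WT and vehicle the members lie above the immature cells in all 6 genes; under drug the immature cells reach or pass them for Stfa3, Cstdc5 and Cstdc6.

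Il1b-rich neutrophils, 1538 cells that met the rule but for 5 or more Il1b UMIs, were compared next. The tumor change differed in 7 of 8933 genes (0.0784%) and the drug change in 109 (1.22%), and leaving out 1 library moved these to between 3 (without WT replicate 2) and 14 (without either IACS-70654 replicate) and to between 40 and 50 without any 1 vehicle or IACS-70654 replicate. Wfdc17 rose more in the members, by 3.66 against 2.96 (difference 0.63 ± 0.12, edgeR adjusted p = 0.00032). Interferon genes differed under drug the other way from the immature cells, with 6 of 39 higher and 1 lower in members and a median difference of 0.321. Isg15 changed by -0.71 in members and -1.64 in Il1b-rich cells (0.95 ± 0.15), and Ifit1 by 0.77 and -0.61 (1.41 ± 0.18). Ly6g fell more in members, by -1.44 against -0.48 (-0.94 ± 0.11). None of 9 stefins was called different in either comparison, and at an unadjusted p under 0.05 1 was lower in members for the tumor and 3 higher for the drug. The Il1b-rich class held only 61 to 393 cells per library.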

How the data were processed

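Single-cell RNA libraries of 3' ends were made from CD45+ marrow cells, and the authors deposited a matrix of raw UMI counts per gene and cell for each library. Per the file headers and the submitters' notes these came from Cell Ranger 7.2.0 with the mm10 genome, and Seurat was used later. Cells were pooled from 3 mice per sample. Of 16 libraries, the 6 CD45+ marrow libraries were used and the others were not used here.

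The rule was applied to each cell's UMI counts, and counts of members were summed per library. The members held 2235806 to 6171315 UMIs per library, which sets the precision for low genes. The sums were tested with edgeR 4.0.16 (glmQLFit and glmQLFTest with a robust spread, filterByExpr, TMM, limma 3.58.1, R 4.3.3) on all 6 libraries in 1 model with 3 group means, and p-values were adjusted over all 9840 genes by the Benjamini-Hochberg method. Standard errors are the log2 change divided by the square root of the F value. The interaction fits had 2 classes in each of 6 libraries with the library as a block. Shares were tested by exact two-sided permutation over libraries (scipy 1.17.1, Python 3.11.15). For the interferon cell share, members were thinned to 1000 UMIs, and in 1 alternative cells were thinned to 2000 UMIs before the rule. Cells with fewer UMIs than the depth in use were left out. No doublet caller was run, and members with 2 or more UMIs of other-lineage markers (B, T and NK, monocyte, dendritic, erythroid, platelet, eosinophil and basophil) were left out in another alternative, run also with Cd3d not counted.

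Named genes were, per comparison, the 12 largest called rises and 12 largest called falls among genes with a mean of at least 5 log2 CPM and no overlap between groups, leaving out the genes of the rule, mt- genes and models named only Gm or Rik. Genes of the lists were added, as were the 8 largest called differences of each comparison in the interaction fits under the same limits, with the mean taken over both classes. The members, lists and comparisons were chosen with earlier results of these data known, and the total-UMI scaling, the filter without Cd3d, the crossed pairing and the shared stefin stretch were chosen after the data were seen. Same-numbered libraries did not deviate together (correlations of 0.0199, -0.184 and -0.0131 over 3280 genes), so the numbers were not used as pairs. Alternatives were DESeq2 1.42.0 as test or for size factors, no filter, other limits of the rule, thinning, each library left out, a replicate block and a looser threshold. On simulated data with 200 genes changed by 1 on the log2 scale, edgeR recovered 51% of them in vehicle against WT over 9464 genes, with 0 false calls, and DESeq2 37%. The interaction fit against immature neutrophils recovered 22% over 9784 genes, so a gene not called there may still differ. The simulated libraries were independent, with 1 fixed dispersion of 0.01, so false calls where 2 libraries are parts of 1 pool were not tested. Some listed genes are not reported here.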

Additional observations from a re-analysis of the deposited data

Results flagged for a closer look

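The following results stood out because a test of the difference between 2 neutrophil classes of the same libraries passed its threshold. Against immature neutrophils, the tumor change differed in 109 genes and the drug change in 384. Against Il1b-rich neutrophils, these counts were 7 and 109. All values below are log2 changes in the members minus those in the other class, from edgeR, and the causes were not tested.

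For the tumor change against immature cells, the members were higher for Pam (1.30), Apoe (1.24), Spata13 (1.14), Tpi1 (1.085), Cd14 (1.03) and Ifitm1 (0.98). Pam makes amidated peptides, Apoe is a lipid carrier and Spata13 an activator of small GTPases. Slc7a11 (-0.996) and Fkbp5 (-0.98) were lower. For the drug change, Zmpste24 (1.85) and the acute-phase protein gene Orm1 (1.85) were higher in members, with changes of 0.46 and -0.36 in members and -1.42 and -2.23 in immature cells. Lower were the stefins Stfa2l1 (-1.82), Cstdc6 (-1.75) and Cstdc5 (-1.58), with changes of 0.83, 0.81 and 1.31 in members and 2.61, 2.53 and 2.86 in immature cells. Also lower were Acod1 (-1.72), Slfn5 (-1.70) and Fam162a (-1.49).

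Against Il1b-rich cells, Mgst1 (0.93), a membrane glutathione transferase, Cdk11b (0.91), Ifitm6 (0.90) and Wfdc17 (0.63) were higher in members, and Pnpla7 (-0.91) was lower. Ighm also passed the test (-3.47), but its WT libraries stood at 125 and 849.8 TMM-scaled CPM in members, so the value is given and not read as a change. For the drug change, Ifit1 (1.415), Tcf4 (1.24), Tmem140 (1.23) and Slfn5 (1.14) were higher, and Cd55 (-1.79), an inhibitor of complement, Ly6c2 (-1.46), Asnsd1 (-1.25) and Scamp1 (-1.15) were lower. Slfn5 thus stood below immature cells and above Il1b-rich cells in the drug change, with 0.55 in members, 2.21 in immature and -0.58 in Il1b-rich cells.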

How the results depend on the processing

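With DESeq2 as the test, 261 genes rose and 185 fell in vehicle against WT, 255 rose and 638 fell under drug against vehicle and 322 rose and 701 fell under drug against WT, so that rises were 58.5%, 28.6% and 31.5% of the calls. With members thinned to 1000 UMIs, the counts up and down were 233 and 182, 347 and 442, and 408 and 588 in the order vehicle against WT, drug against vehicle and drug against WT. With total-UMI scaling they were 230 and 763, 1972 and 365, and 975 and 772. At an adjusted p under 0.05 with no limit on the change they were 1241 and 936, 1677 and 2200, and 1580 and 1916. Leaving out 1 library gave 378 to 497 up and 249 to 386 down, 506 to 963 up and 751 to 961 down, and 610 to 768 up and 823 to 893 down. Leaving out 1 library moved the differences from immature cells to 61 to 135 (tumor) and 225 to 460 (drug), and from Il1b-rich cells to 3 to 14 and 40 to 121. With the replicate block the counts were 479 and 376, 862 and 911, and 800 and 944, and the Wfdc17 rise with the tumor lost its call (3.66, adjusted p = 0.0104). With the numbers of the IACS-70654 libraries crossed, a choice made after the data were seen, 729 rose and 900 fell against WT.

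The member share differed by 10.5 (vehicle minus WT), -5.91 (drug minus vehicle) and 4.599 points (drug minus WT) with at least 3 Cxcr2 UMIs, and by 9.17 and 2.09 points for the first and last as a share of all kept cells. The interferon cell share differed by 3.62, 2.87 and 6.49 points without thinning, and by 1.89 and 1.72 points with 2 genes for vehicle and drug against WT. Of 10799 values of 218 named genes under the alternatives, 10217 stayed on their side of the threshold, values that were not called under either setting and may have changed sign included, and 4 values called in 1 of the settings changed direction. These were Fosl1 in vehicle against WT when the rule followed thinning (-0.038, adjusted p = 0.9401), Bach2 in vehicle against WT without members that held other-lineage markers (0.11, 0.9056), and, with Cd3d not counted among these, Cd79b in vehicle (0.51, 0.6598) and drug against WT (0.58, 0.5026), where Cd79b is itself a marker of the filter. For all the counts and shares above that moved, the cause was not tested. Thinning removes UMIs by construction, and low genes are limited by 2235806 to 6171315 UMIs per library.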
